A study of Mus musculus with 4 samples.

Results

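The genes described here encode the machinery of mitosis: the kinases and cyclins that start it, the proteins that shape chromosomes, the kinetochore and spindle, the checkpoint that delays anaphase, and the proteins that divide the cell. A list of 44 such genes was taken by name. Members were all probe sets of the array whose single gene symbol in the annotation is on that list, which gave 96 of 45037 probe sets, for 43 of the 18193 genes with a probe set of 1 symbol. Ccnb1 (cyclin B1) has no probe set under its own single symbol in the annotation used here and has no value.

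Testes of 129 strain mice at 2 days post partum (dpp) were kept in organ culture on agar for 24 h, and total RNA was hybridised to Affymetrix mouse arrays. Both groups were cultured in serum-containing medium. The control group received the vehicle, DMSO, and the treated group received WIN 18,446 at 1 µM, a bisdichloroacetyldiamine that inhibits the retinaldehyde dehydrogenases and so the synthesis of retinoic acid. Each group had 2 arrays, called control 1 and 2 and treated 1 and 2. The labels do not say how many testes or animals made a sample or whether replicates came from separate animals, and the p-values below therefore reflect nothing beyond the scatter of these 4 samples, part of which may be technical.

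Most genes of mitosis are transcribed in waves: transcripts are scarce in resting and early G1 cells and peak from late S phase to mitosis. Their summed level in a tissue is therefore widely used as a measure of how many cells divide. In the testis just after birth, Sertoli cells and interstitial cells divide, while the germ cells, arrested since fetal life, are about to resume division. A whole-testis sample cannot tell more dividing cells apart from more of these transcripts per cell.

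All 43 measured genes stood higher on both treated arrays than on both control arrays, and 26 of them rose. A gene is called here when limma, a linear model with a moderated variance, gave an adjusted p under 0.05 over all 20895 probe sets tested. The brightest tested probe set stands for its gene, and a probe set was tested when its mean over the 4 arrays was at least 5 on the log2 scale. Among all 10970 genes tested, 2.94% were called higher and 3.46% lower, against 60.5% and none of the mitotic genes. Over all genes, both treated arrays lay above both controls in 24.8% and below both in 31.8%. The median log2 difference (treated minus control) was 0.95 over the 43 genes, a 1.93-fold difference, and -0.02 over all genes tested. The smallest member difference, 0.29 for Pttg1, was above that of 87.0% of all genes tested. A difference of at least 2-fold was seen in 14 of the 43 genes (32.6%), against 2.23% of all genes.

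Limma gave all 43 genes an unadjusted p under 0.05, a cut that 2746 of all 10970 genes tested also passed. The 17 genes that were not called had adjusted p-values from 0.053 to 0.147. Their median difference was 0.84, against 0.95 for the genes called, and the median SD between their control arrays was 0.32, against 0.18. The calls rest on both control arrays: limma called 0 of the 43 genes without control 1 (39 at an unadjusted p under 0.05, median difference 0.72) and 0 without control 2 (43, median 1.09), when it called 0 genes of the whole array as well. It called 15 without treated 1 and 13 without treated 2.

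Arrays of 1 group were not alike in these genes. Control 2 read higher than control 1 in 42 of 43 genes (97.7%), with Kif2c the exception, and by a median of 0.33 log2 units, whereas over all genes tested control 2 was higher in 43.1% and the median difference was -0.02. Treated 2 read higher than treated 1 in 35 of 43 genes, against 54.8% of all genes tested, and the median distance between the treated arrays was 0.19. The mean log2 level of the 43 genes was 10.63 on control 1, 10.97 on control 2, 11.66 on treated 1 and 11.81 on treated 2. For 35 genes the distance from the higher control array to the lower treated array exceeded the distance between the control arrays. For 34 it exceeded the distance between the treated arrays as well. These counts were not made over all genes. The median distance between the control arrays was 0.33 in the 43 genes and 0.10 over all genes tested. The distance between the groups ranged from 0.19 to 1.24 log2 units in the 43 genes, with a median of 0.66.

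**Figure D1:**
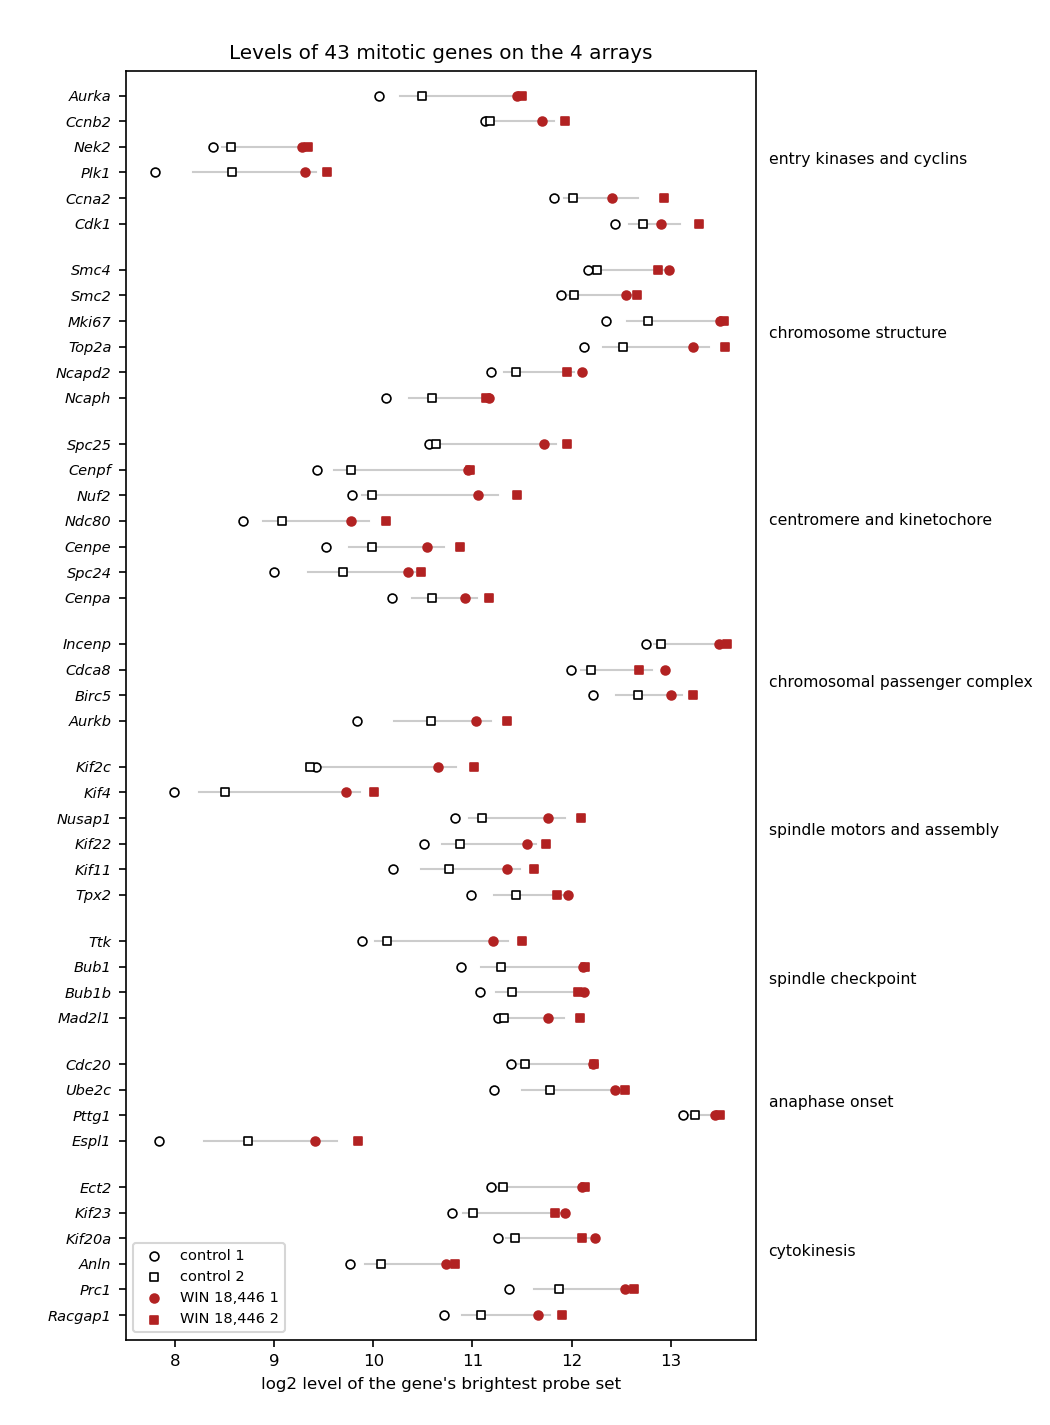
Log2 level (horizontal axis) of the brightest probe set of each of 43 mitotic genes on the 4 arrays, grouped by mitotic step. Open symbols are the control arrays, filled symbols the treated arrays, circles replicate 1 and squares replicate 2, and the grey line joins the group means; in every gene both filled symbols lie to the right of both open ones. Levels of different probe sets are not comparable with each other.

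The arrays were alike in overall level, with medians of 3.72 and 3.76 for the controls and 3.83 and 3.72 for the treated arrays. Treated 1 read lower than the others in the control probe set for the 5' end of 18S ribosomal RNA, at 6.55 against 8.12 to 8.67. Without treated 1 the median difference of the mitotic genes was 1.00.

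The promoters of these genes shared short sequences that the choice of genes had not used. Many genes of late S phase, G2 and mitosis carry a cell cycle genes homology region (CHR), which is bound by MuvB complexes that repress in resting cells and activate before mitosis, and CCAAT boxes, which are bound by the activator NF-Y. RefSeq promoter windows (GRCm38.p6, 250 bases before to 50 after each annotated start) were found for 37 of the 44 genes, Ccnb1 included. The CHR was searched as TTTGAA and TTTAAA and the box as CCAAT, on both strands, with overlapping matches all counted. TTTGAA was present in 29 of 39 promoters of these genes (74.4%), against 5878 of 32851 promoters in the whole table (17.9%). TTTAAA was present in 23.1% against 13.2%, and CCAAT in 76.9% against 37.4%. At least 2 CCAAT together with either CHR form occurred in 18 of the 39 (46.2%), against 3.13% of all promoters. Each match is a match of letters and was not tested as a binding site.

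Below are the 150 bases upstream of the start for members from different steps, 5' to 3' on the gene's strand, with matches to CHR and CCAAT in either orientation in capitals. They were chosen, after the matches were seen, to show the arrangement close to the start site in genes of several steps, and Nusap1 is added as a member that rose without any match.
Cdk1 (chr10:69352913-69353062, minus strand): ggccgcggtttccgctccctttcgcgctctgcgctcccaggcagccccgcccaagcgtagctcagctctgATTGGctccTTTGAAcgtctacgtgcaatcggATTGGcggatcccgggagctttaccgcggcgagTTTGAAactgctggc
Mki67 (chr7:135716380-135716529, minus strand): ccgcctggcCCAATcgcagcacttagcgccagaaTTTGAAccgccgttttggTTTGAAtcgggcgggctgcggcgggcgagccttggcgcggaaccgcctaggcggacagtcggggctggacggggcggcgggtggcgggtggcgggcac
Top2a (chr11:99024190-99024339, minus strand): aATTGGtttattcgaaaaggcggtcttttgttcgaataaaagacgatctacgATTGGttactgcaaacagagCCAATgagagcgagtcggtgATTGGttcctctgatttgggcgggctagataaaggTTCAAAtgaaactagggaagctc
Cenpa (chr5:30666736-30666885, plus strand): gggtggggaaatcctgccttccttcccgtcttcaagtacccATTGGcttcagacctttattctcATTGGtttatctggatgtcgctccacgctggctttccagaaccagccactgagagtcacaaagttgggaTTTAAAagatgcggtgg
Kif22 (chr7:127042421-127042570, minus strand): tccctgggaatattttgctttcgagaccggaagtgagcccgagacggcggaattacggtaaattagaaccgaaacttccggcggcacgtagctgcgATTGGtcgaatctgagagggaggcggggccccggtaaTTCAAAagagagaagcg
Cdc20 (chr4:118437344-118437493, minus strand): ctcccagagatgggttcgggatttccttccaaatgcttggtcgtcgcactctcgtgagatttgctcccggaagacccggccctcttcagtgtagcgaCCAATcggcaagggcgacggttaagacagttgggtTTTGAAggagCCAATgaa
Ube2c (chr2:164769779-164769928, plus strand): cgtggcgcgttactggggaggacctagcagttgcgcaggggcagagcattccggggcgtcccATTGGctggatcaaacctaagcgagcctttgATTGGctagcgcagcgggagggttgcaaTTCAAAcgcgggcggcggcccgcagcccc
Ect2 (chr3:27153879-27154028, minus strand): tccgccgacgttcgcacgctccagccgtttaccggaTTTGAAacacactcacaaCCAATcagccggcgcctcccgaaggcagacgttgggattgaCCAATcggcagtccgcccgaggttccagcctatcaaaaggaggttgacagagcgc
Nusap1 (chr2:119618148-119618297, plus strand): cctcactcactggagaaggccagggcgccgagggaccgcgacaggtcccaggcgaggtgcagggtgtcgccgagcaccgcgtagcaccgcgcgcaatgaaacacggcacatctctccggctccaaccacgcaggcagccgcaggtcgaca

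In the Cdk1, Top2a, Cenpa, Kif22, Cdc20 and Ube2c windows a CHR match starts 15 to 29 bases before the start site, with 1 or more CCAAT boxes further upstream. Over the 39 promoters, 33 of 48 CHR matches lay within 50 bases of the start site, and 63 of 66 CCAAT matches lay upstream of it. With 250 bases of the window before the start and 50 after, most evenly placed matches would lie upstream too. Positions were not counted over all promoters. Of the genes called higher, 20 of 23 with a promoter held either CHR form, and of those not called 9 of 13 did, a comparison that was not tested.

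**Figure D2:**
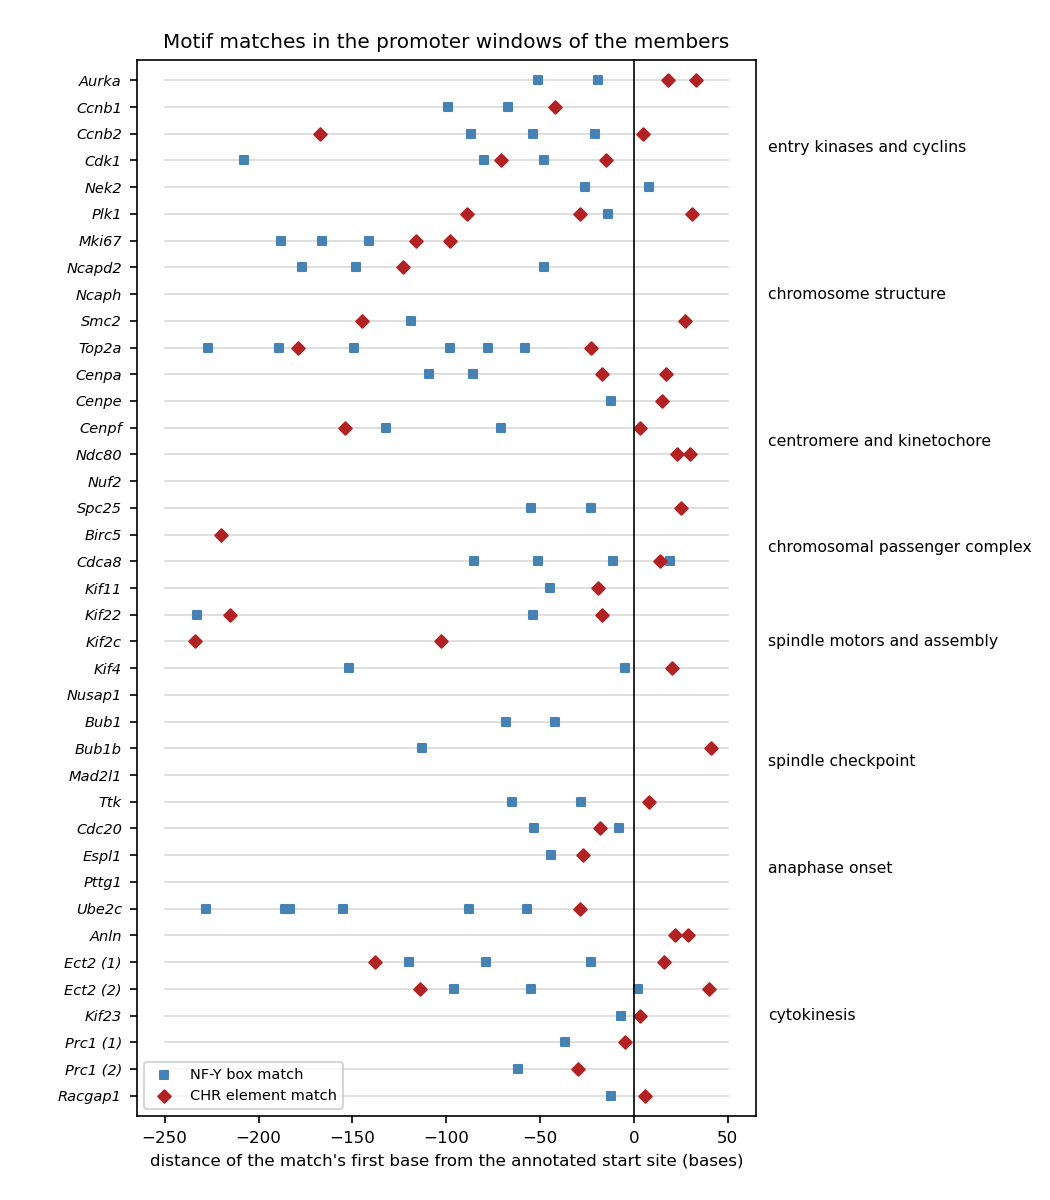
Distance in bases (horizontal axis) of each CHR match (diamonds) and each CCAAT match, labelled NF-Y box (squares), from the annotated start site, in 39 promoter windows of 37 mitotic genes; numbered rows are different start sites of 1 gene. Of 48 CHR matches 33 lie within 50 bases of the start site, and 63 of 66 CCAAT matches lie upstream of it. The windows hold 250 bases before the start site and 50 after.

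The kinases and cyclins that start mitosis numbered 6: 2 rose and 4 were not called, and the median log2 difference was 0.79. Aurka, the Aurora A kinase of centrosomes and spindle poles, read 10.05 and 10.49 in control and 11.45 and 11.50 in treated samples. Both treated arrays were within 0.05 of each other and well above the controls, and the gene rose 2.30-fold (log2 difference 1.20, SE 0.17, adjusted p = 0.0286). Ccnb2, cyclin B2, a partner of Cdk1, read 11.12 and 11.18 in control and 11.70 and 11.94 in treated samples, and rose by 0.67 log2 units (SE 0.11, adjusted p = 0.0419). Cdk1, the kinase whose activity drives entry into mitosis and whose promoter is shown above, read 12.44 and 12.72 in control and 12.90 and 13.28 in treated samples. Its treated values lay further apart than its controls, and its difference of 0.51 had the largest adjusted p of all 43 genes (0.147). Nek2, a centrosome kinase, Plk1, the Polo-like kinase of mitotic entry and exit, and Ccna2, cyclin A2, differed by 0.84, 1.24 and 0.75, with adjusted p-values from 0.053 to 0.0939. With each array left out in turn, the difference ranged from 0.33 to 0.70 for Cdk1 and from 0.49 to 1.01 for Ccna2.

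Of the genes of chromosome structure, 5 of 6 rose, with a median difference of 0.75. Mki67, the Ki-67 protein that coats mitotic chromosomes and is the usual stain for dividing cells, read 12.35 and 12.77 in control and 13.49 and 13.54 in treated samples, a 1.94-fold rise (log2 difference 0.96, SE 0.14, adjusted p = 0.0327). Top2a, the topoisomerase that untangles sister chromatids, read 12.12 and 12.52 in control and 13.22 and 13.55 in treated samples, and rose 2.09-fold (adjusted p = 0.0374). In both genes the treated arrays were clear of the controls, although the controls themselves differed by about 0.4. Smc4 and Smc2, the ATPase pair at the core of condensin, rose by 0.72 (SE 0.08, adjusted p = 0.0192) and 0.64 (SE 0.09, adjusted p = 0.0275). Smc4 read 12.17 and 12.25 in control and 12.98 and 12.87 in treated samples, and its arrays agreed closely within each group. Smc2 read 11.90 and 12.03 in control and 12.55 and 12.66 in treated samples. Ncapd2, a condensin I subunit, rose by 0.71. Ncaph, the kleisin of condensin I, read 10.13 and 10.59 in control and 11.16 and 11.14 in treated samples, a difference of 0.79 that was not called (adjusted p = 0.0744), while its second tested probe set rose by 1.05 (adjusted p = 0.0296).

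Of 7 genes of the centromere and kinetochore 3 rose, and the median difference was 1.07. The outer kinetochore holds spindle microtubules through the Ndc80 complex, made of Ndc80, Nuf2, Spc24 and Spc25. Spc25 read 10.56 and 10.63 in control and 11.72 and 11.96 in treated samples, so that the controls lay within 0.08 of each other and more than 1 log2 unit below the treated arrays. It rose 2.37-fold (log2 difference 1.24, SE 0.12, adjusted p = 0.0144, the smallest of the 43 genes). Nuf2 read 9.78 and 9.99 in control and 11.06 and 11.45 in treated samples, and rose 2.59-fold (adjusted p = 0.0239). The other 2 subunits differed by like amounts, 1.07 for Ndc80 (adjusted p = 0.0589) and 1.07 for Spc24 (adjusted p = 0.0826), and were not called. Cenpf, a large kinetochore protein of G2 and mitosis, read 9.44 and 9.78 in control and 10.95 and 10.98 in treated samples, with the treated arrays almost equal (log2 difference 1.36, adjusted p = 0.0195). Cenpe, the kinetochore kinesin that gathers chromosomes at the spindle equator, differed by 0.95 (adjusted p = 0.0717). Cenpa, the histone H3 variant that marks the centromere, read 10.19 and 10.59 in control and 10.93 and 11.16 in treated samples, the smallest difference of this step (0.65, adjusted p = 0.111).

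Of the 4 subunits of the chromosomal passenger complex, which corrects faulty attachments and later directs the cleavage furrow, 2 rose, and the median difference was 0.71. Incenp, its scaffold, read 12.75 and 12.90 in control and 13.48 and 13.57 in treated samples, and rose by 0.70 (SE 0.08, adjusted p = 0.0196). Cdca8, the borealin subunit, read 11.99 and 12.19 in control and 12.94 and 12.68 in treated samples, and rose by 0.71 (SE 0.12, adjusted p = 0.0424). For Aurkb, the kinase of the complex, the values were 9.84 and 10.58 in control and 11.03 and 11.35 in treated samples. The gap between its controls, 0.74, was larger than the gap between the groups, and the difference of 0.98 was not called (adjusted p = 0.118). Birc5, survivin, differed by 0.67 (adjusted p = 0.0989). Leaving out each array in turn moved the difference from 0.61 to 1.35 for Aurkb and from 0.44 to 0.90 for Birc5.

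Spindle motors and assembly factors held the largest difference among the brightest probe sets of the 43 genes. Kif4, the chromokinesin that works with condensin and later at the central spindle, read 7.99 and 8.51 in control and 9.73 and 10.00 in treated samples, and rose 3.07-fold (log2 difference 1.62, SE 0.23, adjusted p = 0.0301). Kif2c, a kinesin that takes apart microtubules at centromeres, read 9.42 and 9.37 in control and 10.66 and 11.01 in treated samples, so that its controls were nearly equal and its treated arrays more than 1.2 log2 units above them (2.72-fold, SE 0.16 on the log2 scale, adjusted p = 0.0194). Nusap1, which bundles microtubules near chromosomes, read 10.82 and 11.10 in control and 11.76 and 12.10 in treated samples, and Kif22, another chromokinesin, read 10.52 and 10.88 in control and 11.55 and 11.74 in treated samples. Both rose, by 0.97 (adjusted p = 0.0394) and 0.95 (adjusted p = 0.0395). Kif11, the motor that pushes spindle poles apart, differed by 1.00 and was not called (adjusted p = 0.0719). Tpx2, which activates Aurora A at spindle microtubules, read 10.99 and 11.44 in control and 11.96 and 11.85 in treated samples and was not called (difference 0.69, adjusted p = 0.088), but its other tested probe set rose by 0.91 (adjusted p = 0.0192). In all, 4 of 6 genes rose, with a median of 0.99.

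The spindle checkpoint holds back anaphase until every kinetochore is attached, and 3 of its 4 genes rose, with a median of 0.95. Ttk, the Mps1 kinase that starts the signal, read 9.88 and 10.14 in control and 11.21 and 11.50 in treated samples, a clear separation of the groups (2.54-fold, SE 0.16 on the log2 scale, adjusted p = 0.0208). Bub1, a kinase of the same pathway, read 10.89 and 11.29 in control and 12.11 and 12.14 in treated samples, and rose by 1.04 (SE 0.15, adjusted p = 0.0302). Bub1b, the BubR1 protein that blocks Cdc20, read 11.07 and 11.40 in control and 12.12 and 12.07 in treated samples, and rose by 0.86 (SE 0.13, adjusted p = 0.0333). Mad2l1, the Mad2 protein, read 11.25 and 11.32 in control and 11.76 and 12.09 in treated samples. Its controls were nearly equal and its treated arrays differed by 0.33, and the difference of 0.64 was not called (adjusted p = 0.0628).

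Of 4 genes of anaphase onset 1 rose, and the median difference was 0.87. Cdc20, the activator of the anaphase-promoting complex and the target of the checkpoint, read 11.39 and 11.53 in control and 12.21 and 12.23 in treated samples. Its treated arrays were equal to within 0.02, and it rose 1.69-fold (log2 difference 0.76, SE 0.09, adjusted p = 0.0208). Espl1, separase, the protease that cuts cohesin, read 7.84 and 8.74 in control and 9.41 and 9.85 in treated samples. The controls differed by 0.91, more than the gap between the groups, and the difference of 1.34 was not called (adjusted p = 0.1; from 0.89 to 1.80 with each array left out). Ube2c, the ubiquitin-conjugating enzyme of the same complex, differed by 0.99 (adjusted p = 0.0568). Pttg1, securin, which inhibits separase, had the smallest difference of the 43 genes, 0.29 (adjusted p = 0.0889), with controls at 13.12 and 13.25 and treated arrays at 13.45 and 13.50.

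All 6 genes of cytokinesis rose, within a narrow range of 0.83 to 0.98 log2 units. Ect2, the exchange factor that activates RhoA at the furrow, read 11.19 and 11.31 in control and 12.11 and 12.14 in treated samples, and had the tightest replicates of the step (log2 difference 0.87, SE 0.09, adjusted p = 0.0159). Kif23, the kinesin of the centralspindlin complex, read 10.79 and 11.01 in control and 11.93 and 11.83 in treated samples, a 1.97-fold rise (adjusted p = 0.0199). Kif20a, which carries the passenger complex to the midzone, read 11.25 and 11.43 in control and 12.23 and 12.11 in treated samples, and rose 1.78-fold (adjusted p = 0.0236). Anln, anillin, which ties actin to the furrow, read 9.76 and 10.08 in control and 10.74 and 10.82 in treated samples, and rose 1.81-fold (adjusted p = 0.0432). Prc1, which cross-links midzone microtubules, rose by 0.96 (adjusted p = 0.0485). Racgap1, the partner of Kif23, read 10.71 and 11.08 in control and 11.66 and 11.90 in treated samples, and rose by 0.88 with an adjusted p just under the threshold (0.0498).

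**Figure D3:**
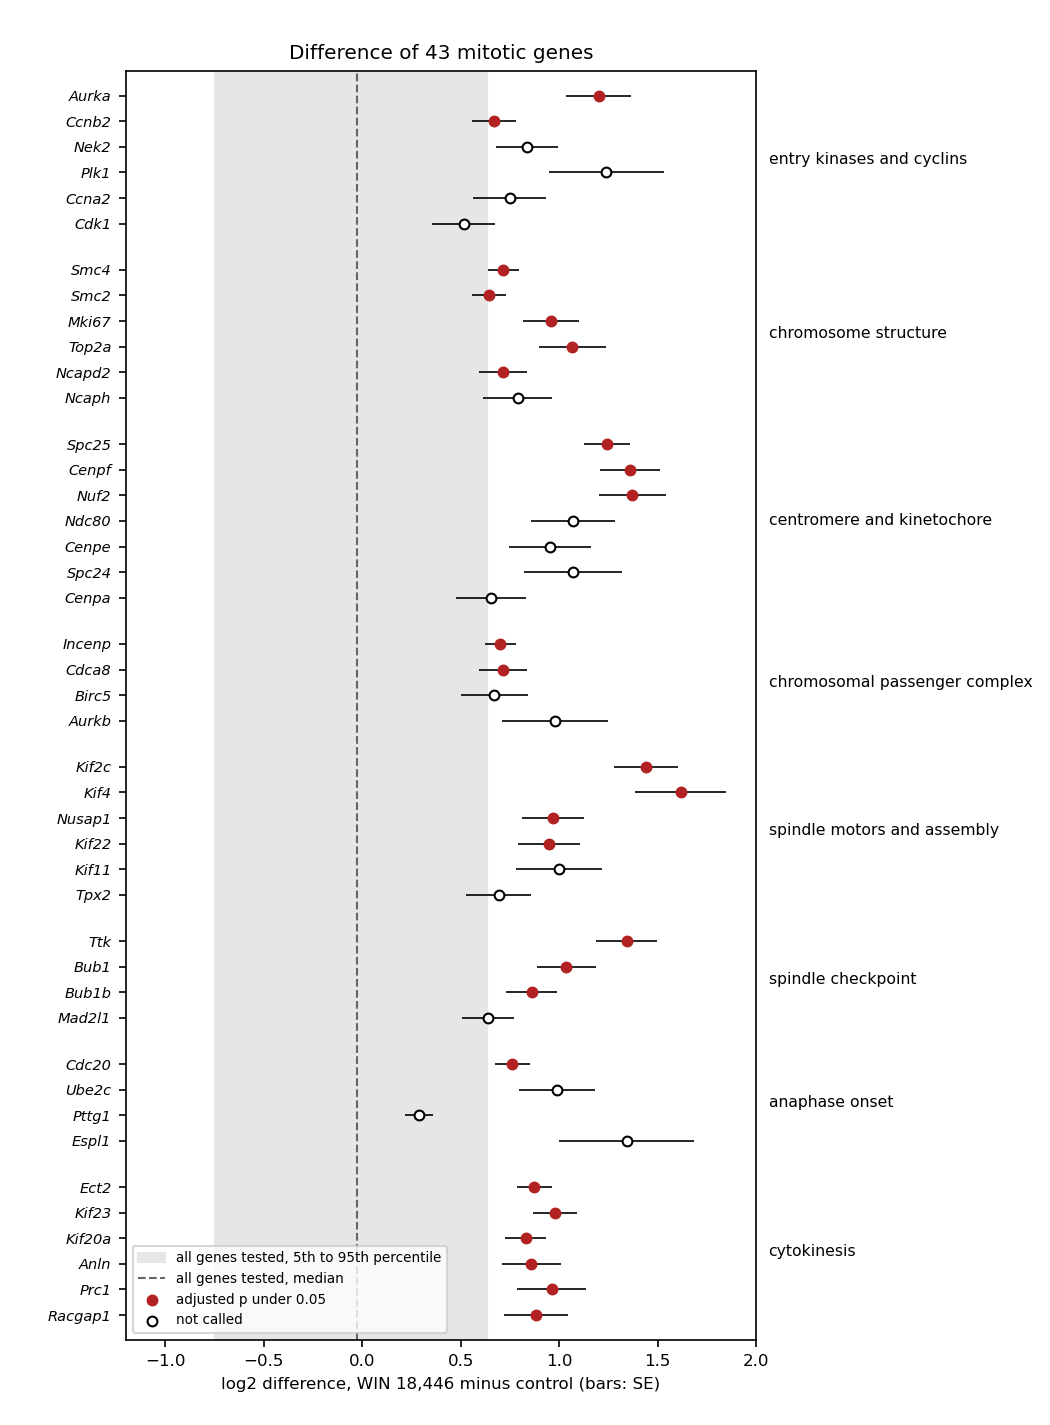
Log2 difference, treated minus control (horizontal axis), of 43 mitotic genes by step, with its standard error as bars; filled points had an adjusted p under 0.05 and open points did not. The grey band spans the 5th to 95th percentile of all 10970 genes tested and the dashed line their median of -0.02; 26 points are filled and all 43 lie to the right of the dashed line.

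Probe sets other than the brightest pointed the same way. Of the 96 probe sets, 74 were tested, and all 74 read higher on both treated arrays than on both controls. Limma called 34 of the 74 higher, where 5.18% of all probe sets tested were called in either direction. Of all 20895 probe sets tested, 475 were called higher and 608 lower. Both treated arrays lay above both controls in 24.8% of all genes tested, a share not given here over all probe sets. In 22 genes more than 1 probe set was tested, and 14 of these genes had both called and uncalled probe sets: Bub1b, Cdc20, Cdca8, Cenpf, Kif22, Kif23, Kif2c, Ncaph, Nek2, Racgap1, Smc2, Smc4, Top2a and Tpx2. Ncaph, Nek2 and Tpx2 were called by a dimmer probe set and not by the brightest. Dimmer probe sets gave the larger difference in 21 of 31 comparisons with the brightest one. Among the widest were 2.47 and 2.00 against 1.00 for Kif11 and 2.38 against 0.98 for Aurkb. These dimmer probe sets were not called (adjusted p = 0.104, 0.0921 and 0.0787). The first read 6.16 and 7.62 in control and 10.05 and 8.67 in treated samples, and that of Aurkb read 7.54 and 9.14 in treated samples. The 22 probe sets that were not tested read at most 4.85 on any array, and 11 of them never exceeded 2.22, the highest reading of bacterial control probe sets without a target in mouse RNA.

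Other genes of mitosis, listed by role, were read for comparison: 106 of 114 symbols had a probe set and 103 were tested. Limma gave 64 of the 103 an unadjusted p under 0.05 in either direction, against 2746 of all 10970 genes tested. Of the 103, 33 rose, 0 fell and 70 were not called, with a median difference of 0.61. Over all genes tested, 2.94% were called higher and 3.46% lower, the shares to set beside the counts of each list below. Without control 1 or control 2 limma called 0 of them (47 and 55 at an unadjusted p under 0.05), and without treated 1 or treated 2 it called 20 and 15. Among entry regulators 6 of 15 rose, with Pbk, a mitotic kinase, up by 1.34 (adjusted p = 0.014), Mastl, the Greatwall kinase, by 1.37, Melk by 1.26 and Plk4, the kinase of centriole copying, by 0.91. Foxm1 and Mybl2, transcription factors of G2 and mitosis, differed by 0.99 and 1.44 and were not called (adjusted p = 0.0914 and 0.103); they were chosen after their values were seen. Further centromere and kinetochore genes rose in 8 of 26 cases, among them Cenpk (1.11), Cenpq (0.83), Ska3 (1.62) and Sgo2a (1.17). Of 26 genes on the further spindle list 13 rose. The 4 of smallest p were the augmin subunit Haus8 (1.65), Aspm (1.05), Kntc1 (1.23) and Spag5 (1.08). Kntc1 was placed on this list although its product is a kinetochore protein. Differences in this list reached 2.03.

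The anaphase-promoting complex and checkpoint list had a median of -0.01 over 16 genes, and Fbxo5, the inhibitor of that complex in S and G2 phase, was its 1 riser (1.03, adjusted p = 0.0461). Among 11 condensin and cohesin genes, whose median was 0.18, Ncapg of condensin I (0.88) and Cdca5, the sororin that protects cohesion (1.34), rose. Of 9 further cytokinesis genes Cep55 (0.96), Shcbp1 (1.07) and Arhgap11a (0.94) rose, and the median was 0.10. The differences between these lists were not tested.

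**Figure D4:**
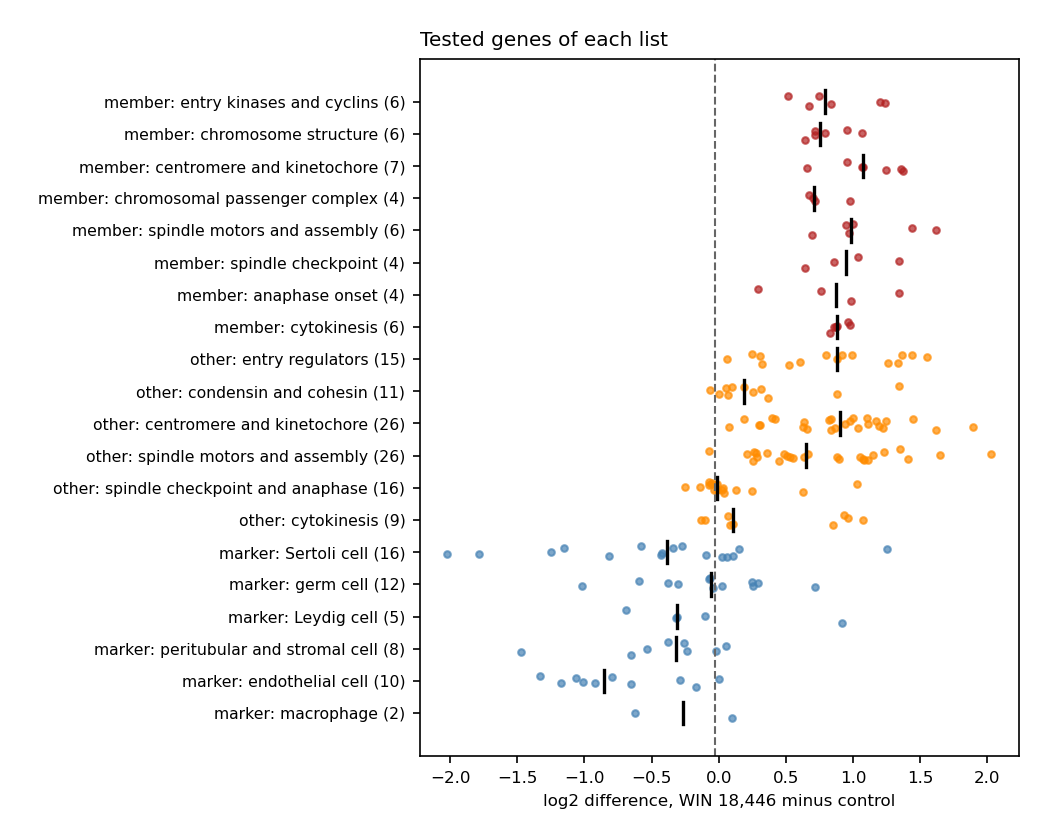
Log2 difference, treated minus control (horizontal axis), of each tested gene (points) in the steps of the mitotic list (red), the lists of other mitotic genes (orange) and the cell type marker lists (blue), with the number of genes in brackets and the median as a black bar; the erythroid list, with 1 tested gene, is not drawn. The dashed line is the median of all genes tested; all red points lie to its right, while the blue lists have medians from -0.06 to -0.86.

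Of 54 tested cell type markers of the testis 0 rose and 11 fell (Sertoli 6 of 16, germ cell 2 of 12, peritubular and stromal 2 of 8, endothelial 1 of 10, Leydig 0 of 5, macrophage 0 of 2, erythroid 0 of 1), with a median of -0.31. Over all genes tested, 2.94% were called higher and 3.46% lower. The 16 Sertoli markers had mean log2 levels of 12.48 and 12.43 in control and 11.96 and 12.005 in treated samples. Cldn11 (-1.25) and Sox9 (-1.15) fell. Of the 16, 11 read lower on both treated arrays than on both controls and 4 higher, against 31.8% and 24.8% of all genes tested. Among the 4 was Amh, anti-Müllerian hormone, with a difference of 1.25 that was not called (adjusted p = 0.0575). Tsx (-2.02) and Rhox5 (-1.79), among the 11, were not called either (adjusted p = 0.0577 for each). The 12 tested germ cell markers stood at 10.82 and 10.80 against 10.71 and 10.75, and all 14 with a probe set at 9.87 and 9.75 against 9.53 and 9.60. Sall4 (-0.60) and Tdrd9 (-1.02) fell, and the median difference of the 12 was -0.06. Of the 12, 5 read lower on both treated arrays than on both controls and 4 higher, against 31.8% and 24.8% of all genes tested. Ddx4 and Dazl, among the 4, differed by 0.24 and 0.29 without a call. Tested peritubular and stromal markers stood at 12.29 and 12.42 against 11.91 and 11.92 (all 10 at 10.42 and 10.54 against 10.09 and 10.14), with Des (-1.47) and Ogn (-0.66) called. Leydig markers, all tested, stood at 12.14 and 11.99 against 12.08 and 11.86, with a median difference of -0.31. Of these 5, 3 read lower on both treated arrays than on both controls, against 31.8% of all genes tested. Hsd17b3 alone read higher on both, by 0.92 without a call. Tested endothelial markers stood at 8.65 and 9.05 against 8.17 and 8.06 (all 14 at 7.17 and 7.59 against 6.60 and 6.52), with Robo4 (-1.01) called. The 2 tested macrophage markers stood at 8.40 and 8.55 against 7.77 and 8.66 (all 8 at 4.14 and 4.51 against 3.87 and 4.19), and Hbb-b2, the 1 tested erythroid marker, at 10.53 and 10.38 against 8.62 and 9.45 (all 3 at 4.84 and 4.78 against 4.19 and 4.47). In 2 of 8 macrophage markers, C1qa and Aif1, in Plvap of the endothelial and Cnn1 of the peritubular list, and in 2 of 3 erythroid markers, Alas2 and Hba-a1, all 4 arrays read at or below 2.22. The part of these marker levels in the mitotic difference was not tested.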

How the data were processed

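Total RNA of 2 control and 2 WIN 18,446 samples was amplified, labelled and hybridised, 1 array per sample. The deposited table holds log2 levels, which the authors had normalized before deposit. Both RMA and GCRMA appear in the submitters' processing notes, with no word on which of them made the table. The scale was read from the values. From these, limma 3.58.1 in R 4.3.3 compared treated with control arrays (lmFit, eBayes with a variance trend, two-sided, Benjamini-Hochberg over 20895 probe sets tested, 2 residual and 3.19 prior degrees of freedom). The 64 array controls and probe sets with a mean under 5 were left out. An exact permutation test cannot go below 0.333 here. In simulated data on 20895 probe sets the fit recovered 68.3% of changes of 1 log2 unit. There 9.28% of calls were false, more than the adjusted p cut of 0.05 aims at. Far fewer probe sets were changed in the simulation than the 1083 called in these data, and both shares may differ here. Gene names come from GEO's array annotation, in which 34945 probe sets have 1 symbol, 932 several and 9160 none; all 43 measured genes matched RefSeq by gene ID. Members, lists and tests were chosen with earlier results of these data known. Genes named with values are, per step, up to 4 called by smallest p and the one of largest p, and up to 4 called per further list (2 per marker list); other members are given by their difference. Pttg1 (for its array values), Foxm1, Mybl2, Amh, Tsx, Rhox5, Ddx4, Dazl, Hsd17b3 and Hbb-b2 fall outside this rule and were picked with their values in view. The number of arrays limits the precision. Alternatives concerned the level filter, normalization, variance model, replicate block, threshold, probe set choice and each array left out; where a group kept 1 array, its spread was taken to equal that of the other.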

Additional observations from a re-analysis of the deposited data

How the results depend on the processing

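The direction of all 43 genes was the same under all 13 alternatives that fit single genes, but only the normalization settings could have changed it. The level filter, variance model, threshold and replicate block leave the difference of the group means as it was. With both treated arrays above both controls in all 43 genes, leaving out 1 array cannot reverse a difference. The count of 26 called higher fell to 0 with no level filter (43 at an unadjusted p under 0.05) and to 4 with no variance trend (Cenpf, Ect2, Kif2c and Spc25), when limma called 1 and 235 of all genes, against 702. With each array left out it ranged from 0 to 15 and the median from 0.72 to 1.09; over all genes the counts were 0 without either control, 433 without treated 1 and 761 without treated 2. Of the 26 genes, 10 stayed called without either treated array in turn. Apart from the replicate block, given below, the other settings gave 26 to 39 calls. For other mitotic genes the count of 33 became 0 with no level filter (62 at an unadjusted p under 0.05), 8 with no variance trend and 52 at an adjusted p under 0.10, and ranged from 0 to 20 with each array left out. All genes called were 1383 at that threshold and 1133 with probe sets of a gene averaged. Over all 20895 probe sets the same replicate numbers in both groups do not show a pairing (r = 0.01 between the groups' replicate differences). In the 43 genes, however, replicate 2 read higher than replicate 1 in 42 among controls and in 35 among treated arrays. With the replicate number as a block 40 mitotic genes were called, and 44 other mitotic genes. Why the settings differ was not tested.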

Other observations

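The CHR letters were also counted in other genes that rose. Of the 263 genes called higher that are on neither mitotic list, 195 had a promoter in the RefSeq table, and 46 of these (23.6%) held TTTGAA or TTTAAA, against 1957 of 8940 genes tested (21.9%) and 68 of 299 genes called lower (22.7%). At least 2 CCAAT together with either CHR form occurred in 6.15% of the first set and in 3.34% of all genes tested. Among the other mitotic genes, 15 of 25 called higher held either form, against 21 of 59 that were not called. None of these differences was tested.

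One probe set of Cenpa read lower on both treated arrays than on both controls, at 3.45 and 3.23 against 2.75 and 3.14, under the level needed for a test.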
